A study of Drosophila melanogaster with 18 samples.

Results

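The genes described here encode the subunits of the Drosophila proteasome. They were taken by name: a gene was a member when a non-control probe set carried exactly 1 gene symbol, updated through its Entrez number, and that symbol began with Prosalpha, Prosbeta, Rpn or Rpt followed by the subunit's number. This gave 40 members among the 11981 genes with exactly 1 symbol on the array, each with 1 probe set. They fell into 26 constitutive subunits (6 core alpha, 6 core beta, 7 base and 7 lid subunits) and 14 testis-type subunits, whose names end in R or T with or without a digit after it. The RefSeq gene table holds 48 genes that match the rule, and the 8 others (Prosalpha1 and Prosalpha1R, which share a probe set, and Prosbeta1, Rpn9, Rpn10, Rpt1, Rpt6 and Rpt6R) were not analysed here.

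The proteasome is the protease that degrades proteins marked with ubiquitin in the cytoplasm and nucleus. Its core is a barrel of stacked rings: the outer rings are built from alpha subunits, which gate the entrance, and the inner rings from beta subunits, some of which carry the proteolytic sites. A regulatory cap sits on the barrel. The base of the cap holds the Rpt ATPases, which unfold substrates, together with the scaffold subunits Rpn1 and Rpn2 and the ubiquitin receptor Rpn13, and the lid holds further Rpn subunits, among them the deubiquitinase Rpn11. Drosophila also carries duplicated subunit genes, many of them expressed in the male germline. Dividing cells need the proteasome for the ordered destruction of cell cycle regulators.

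Total RNA of R7 and R3, a pair of Drosophila melanogaster lines, was hybridised to 18 Affymetrix 3' expression arrays, 9 per line. The series follows each culture over serial passages as it became a continuous line. R7 had 3 late arrays (P16, P17 and P19), 2 intermediate arrays (P7 and P8), 1 array at P4 kept apart because the stated stage borders overlap there, and 3 early arrays (P2 in 2 replicates and P3). R3 had 3 late arrays (P16, P17 and P19), 4 arrays of the intermediate stage (P5 to P8) and, at the early stage, 2 replicates of P2. Both lines were kept in T flasks in Schneider's medium with fetal bovine serum and antibiotics. They come from embryonic primary cultures that express activated Ras, which early and late arrays of both lines therefore share. Each line is 1 culture, so the replicate error behind the p-values is that of passages and arrays of the same culture, and no independent culture enters it.

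The values are intensities, the brightness of a probe set on a linear scale, as scaled by the authors. Values below a floor of 32 were set to 32. Tests were run on the log2 scale with limma over the 10200 probe sets that exceeded this floor on 2 or more arrays. Called means an adjusted p under 0.05 over all of them. The array labelled R3 P19 correlated best with R3 P2 replicate 1 (r = 0.994, against 0.939 to 0.952 with the other R3 arrays). The array labelled R3 P2 replicate 2 correlated with R3 P5 and R3 P6 at r = 0.989 and 0.99, and with R3 P2 replicate 1 at 0.951. These 2 arrays stand apart from their labelled stage, so counts of called members in comparisons that use their R3 groups are given with and without them. Each fit shares 1 spread per probe set over all 18 arrays. The 2 arrays therefore also enter the errors and p-values of the comparisons within R7. Of the 40 members, 29 passed the filter on low values: the 26 constitutive subunits, each above the floor on all 18 arrays, and 3 testis-type subunits. Because the arrays hold whole cultures, fewer cells of a type and less RNA per cell cannot be told apart in any value below.

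In late R7 passages, 4 of the 6 core beta subunits were higher than in early R7 passages, by 1.22- to 1.34-fold. Prosbeta2, the subunit with trypsin-like activity, had intensities of 2003, 2080.1 and 2162 in late R7 (P16, P17 and P19), against 1656, 1653 and 1426 in early R7 (P2 replicates 1 and 2, and P3). Every late value lay above every early one, with the lowest of the 6 at P3. The difference was 0.40 ± 0.08 (log2, SE; n = 3 each), or 1.32-fold (limma adjusted p = 0.00374). Prosbeta6, a structural subunit of the inner ring, had 2392, 2369 and 2685 in late R7, against 1899, 1917 and 1755 in early R7. The groups did not overlap, and P19 was the highest of all (0.42 ± 0.09, 1.34-fold, adjusted p = 0.00684). Prosbeta7, also structural, had 2414, 2334 and 2518 in late R7, against 2029.8, 1997 and 1739 in early R7 (0.34 ± 0.08, 1.26-fold, adjusted p = 0.0108), again without overlap. Prosbeta3, a structural subunit, had 2538, 2692 and 2717 in late R7, against 2295, 2169 and 2076 in early R7. Its groups were separate as well (0.28 ± 0.09, 1.22-fold, adjusted p = 0.0391). The other two core beta subunits with a probe set of their own were not called: the change was 0.04 ± 0.09 for Prosbeta5, which carries the chymotrypsin-like site, and 0.05 ± 0.10 for Prosbeta4.

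Of the 6 core alpha subunits, 1 rose in late R7. Prosalpha7 had 1981, 1725 and 1879 in late R7, against 1641, 1567 and 1477 in early R7 (0.25 ± 0.08, 1.19-fold, adjusted p = 0.0489). Its late arrays all lay above its early ones, but the call sits at the threshold. The other 5 alpha subunits had differences from 0.00 (Prosalpha2) to 0.17 (Prosalpha4 and Prosalpha6).

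In the base, 1 of 7 subunits rose. Rpn1, the large scaffold that in yeast docks shuttle proteins, had 1184, 1207 and 1198 in late R7, against 997, 814 and 830.2 in early R7. The late arrays were within a narrow band above all early arrays (0.45 ± 0.12, 1.36-fold, adjusted p = 0.0224). The Rpt ATPases with a probe set of their own, which drive unfolding, were not called: their differences were 0.13 ± 0.11 for Rpt2, 0.17 ± 0.12 for Rpt3, 0.04 ± 0.12 for Rpt4 and -0.05 ± 0.08 for Rpt5. The scaffold Rpn2 (-0.00 ± 0.15) and the receptor Rpn13 (-0.08 ± 0.08) were not called either.

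In the lid, 1 of 7 subunits rose and 1 fell. Rpn12 had 1293, 1347 and 1496 in late R7, against 1150.02, 1213 and 965 in early R7 (0.32 ± 0.09, 1.25-fold, adjusted p = 0.024). All its late values exceeded all its early ones. Rpn8, the inactive partner with which the deubiquitinase Rpn11 pairs, moved the other way: it had 894, 1004 and 1021 in late R7, against 1218, 1204 and 1118 in early R7. Its groups did not overlap, and the value at P16 was the lowest of all 18 arrays (-0.28 ± 0.07, 1.21-fold lower, adjusted p = 0.0144). Rpn11 itself had 1403, 1490 and 1506 in late R7, against 1614, 1696 and 1524 in early R7. Its late arrays were all below its early ones, yet the difference did not pass the test (-0.14 ± 0.09, adjusted p = 0.302). Of the lid's scaffold subunits, Rpn3 lay at -0.01 ± 0.11, Rpn6 at -0.15 ± 0.08 and Rpn7 at 0.04 ± 0.13, none of them called.

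Over the 26 constitutive subunits, 7 were called higher and 1 lower in late R7, and 18 were not called. Among all tested probe sets, 8.75% were called higher and 11.2% lower in the same comparison, 19.9% in either direction. Without overlap between the arrays, 7 constitutive subunits lay higher and 2 lower in late R7, where 18.4% and 23.1% of all tested probe sets did so. The median difference was 0.06 for the constitutive subunits and -0.03 for all tested probe sets. On omitting R3 P2 replicate 2 and R3 P19, every member called with all arrays kept its call, and Rpn5 was called higher as well. Leaving out single arrays moved the count of 8 called members: it was 5 without R7 P2 replicate 1, and 4 on omitting any one of R7 P2 replicate 2, R7 P3, R7 P16 and R7 P19. Prosbeta2, Prosbeta6 and Prosbeta7 kept their call under 31 of 32 alternatives each, Rpn12 and Rpn8 under 26, Rpn1 under 25, Prosbeta3 under 20 and Prosalpha7 under 12. With the arrays scaled to equal medians, the Rpn8 difference was -0.04 (adjusted p = 0.867, within a range of 0.00385 to 0.867 over its alternatives).

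Other cell type markers moved with passage in R7. Of all tested probe sets, 8.75% were called higher and 11.2% lower in late against early R7. Of 9 tested haemocyte genes, 6 fell in late R7 and 0 rose, and the summed intensity of the 10 genes on the list was 2196 to 4158 in late R7, against 5029 to 14590 in early R7. All 6 neuroblast genes fell, with sums of 124.3 to 158.2 in late R7, against 501.4 to 696.5 in early R7. Of these, wor, dpn and pros exceeded the floor only on the 3 early R7 arrays. They passed the filter through those arrays alone, so their fall is no evidence of its own. The late R7 values of grh (16.6, 15.4 and 15.1) were set to the floor as well, and those of ase (29.4, 32.1 and 28.1) lay at or near it. The size and error of these 2 falls therefore depend on the floor. The gene grh had 369 and 270 in intermediate R7, above its early values of 89.0, 98.7 and 96.8, before it fell. Of 6 genes of adult muscle precursors, 1 rose and 1 fell, with sums of 5810 to 7241 in late R7, against 5098 to 6036 in early R7. The part of these shifts in the differences of the proteasome subunits was not tested.

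**Figure D1:**
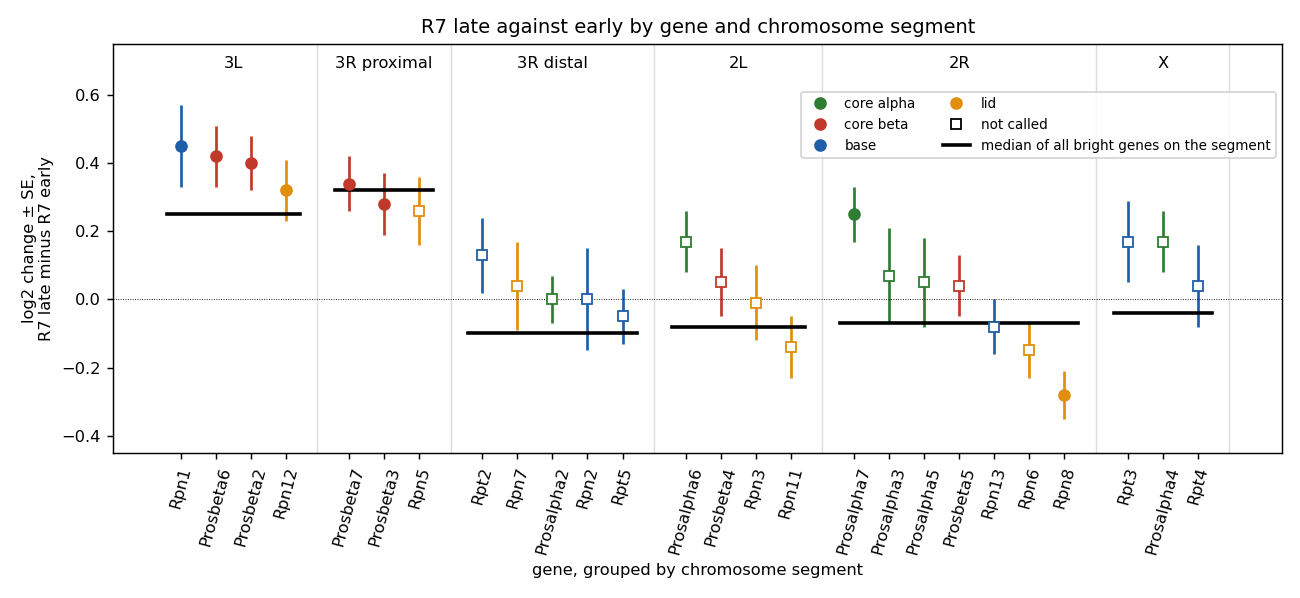
Difference between R7 late and R7 early arrays (log2, vertical axis, ± limma SE) for the 26 constitutive proteasome subunit genes, grouped by chromosome segment and coloured by class; filled circles were called, open squares were not, and black bars give the median of all bright genes on the segment. The 7 genes on 3L and proximal 3R lie between 0.26 and 0.45, and the 19 on other segments between -0.28 and 0.25.

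The subunits that rose in late R7 lie mostly on 1 arm and a part of another. The genes for Prosbeta2, Prosbeta6, Rpn1 and Rpn12 are on 3L, and those for Prosbeta3, Prosbeta7 and Rpn5 on the part of 3R next to the centromere, by the RefSeq table (assembly Release 6 plus ISO1 MT). Of these 7 members 6 were called higher. The other, the lid subunit Rpn5, had 1882, 1679.75 and 2048 in late R7, against 1714, 1591 and 1387 in early R7, and its groups overlapped (0.26 ± 0.10, adjusted p = 0.0853). In the fit without R3 P2 replicate 2 and R3 P19, Rpn5 was called higher too (0.26 ± 0.09), so its lack of a call rests on those arrays. Of the 19 constitutive members elsewhere, 1 rose (Prosalpha7, on 2R) and 1 fell (Rpn8, on 2R). The median difference was 0.34 for the 7 and 0.04 for the 19. By class, 4 of the 6 core beta subunits lie on these segments, against 0 of the 6 core alpha, 1 of the 7 base and 2 of the 7 lid subunits.

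Most of the brighter genes on these segments had shifted the same way, though not all. Taking the 4335 genes with a mean intensity above 200, a tested probe set and a known arm (called bright genes here), the median difference between late and early R7 was 0.25 on 3L and 0.32 on proximal 3R. It was -0.10 on the rest of 3R, -0.08 on 2L, -0.07 on 2R, -0.04 on X and -0.26 on the fourth chromosome. On 3L and proximal 3R together, 82.8% of 1138 bright genes lay above 0, with 390 called higher and 32 lower. On the other segments 36.9% of 3197 did, with 107 called higher and 382 lower. The border on 3R, with 284 bright genes before it and 745 after it and lying between CG42394 and CG6567, was placed from this same comparison, members included, so these values are a description with no test. DNA copy number was not measured on these arrays.

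**Figure D2:**
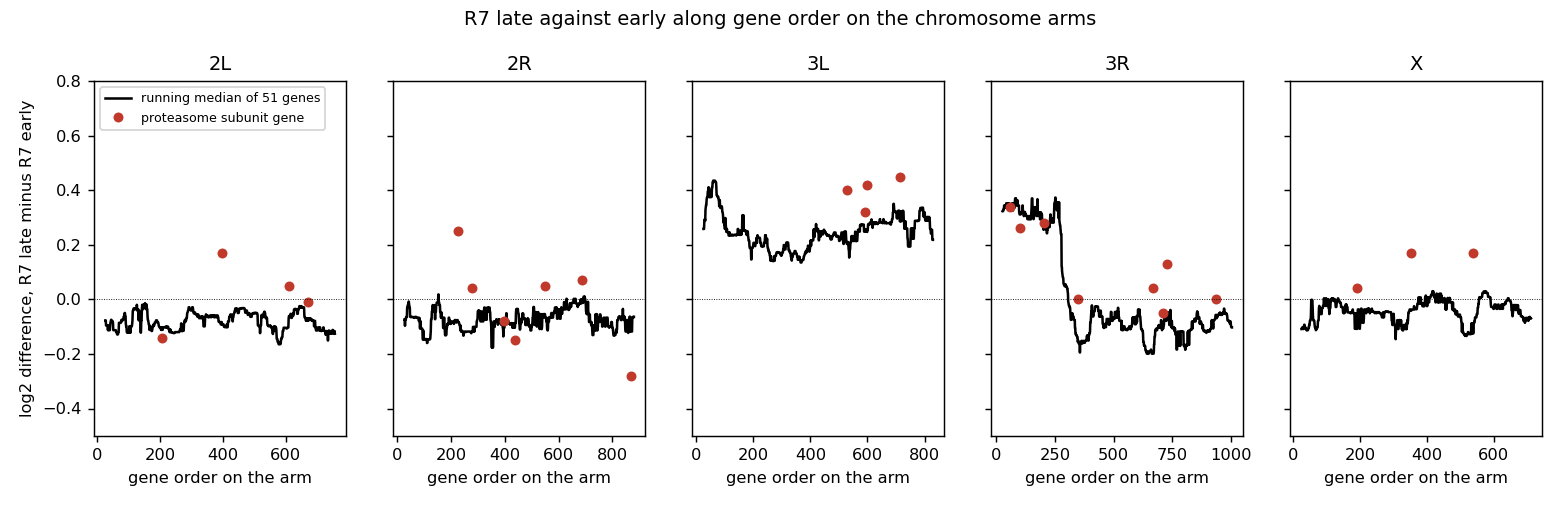
Difference between R7 late and R7 early arrays (log2, vertical axis) along gene order on 5 chromosome arms; the line is the running median of 51 bright genes and each dot is a constitutive proteasome subunit gene. The line is raised over 3L and the first part of 3R, and the subunit genes there lie near or above it.

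Set beside its own neighbours in gene order, a subunit gene mostly lay above them on every kind of segment: 6 of the 7 on 3L and proximal 3R did, and 16 of the 19 elsewhere. The same count over all bright genes was not made, and the neighbours were not matched for intensity, so these counts are a description only. The median of the 50 nearest bright genes was 0.32 around Prosbeta7 (own difference 0.34), 0.31 around Rpn5 (0.26) and 0.26 around Prosbeta3 (0.28). It was 0.25 around both Rpn12 (0.32) and Prosbeta6 (0.42), 0.27 around Rpn1 (0.45) and 0.19 around Prosbeta2 (0.40). Away from these segments, Prosalpha7 lay at 0.25 among neighbours at -0.08, Prosalpha4 at 0.17 among neighbours at -0.13, Prosalpha6 at 0.17 among neighbours at -0.10 and Rpn7 at 0.04 among neighbours at -0.20. The 3 that did not lie above theirs were the lid subunits Rpn8 (-0.28, neighbours at -0.09), Rpn6 (-0.15, neighbours at -0.10) and Rpn11 (-0.14, neighbours at -0.10).

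When each array was centred on the bright genes of each segment, an alternative chosen after seeing the data, the calls changed. In late against early R7, 2 members were then called: Prosalpha7 at 0.33 ± 0.07 (adjusted p = 0.00785, within 0.00785 to 0.16 over its alternatives) and Prosalpha6, an outer ring subunit encoded on 2L, at 0.26 ± 0.08 (adjusted p = 0.0476). None of the 7 members on 3L and proximal 3R was called in this limma fit, and their median was 0.07. Of all tested probe sets 5.81% were called higher in this fit. Prosbeta3 changed sign, to -0.04 (adjusted p = 0.816, within 0.00765 to 0.816 over its alternatives).

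**Figure D3:**
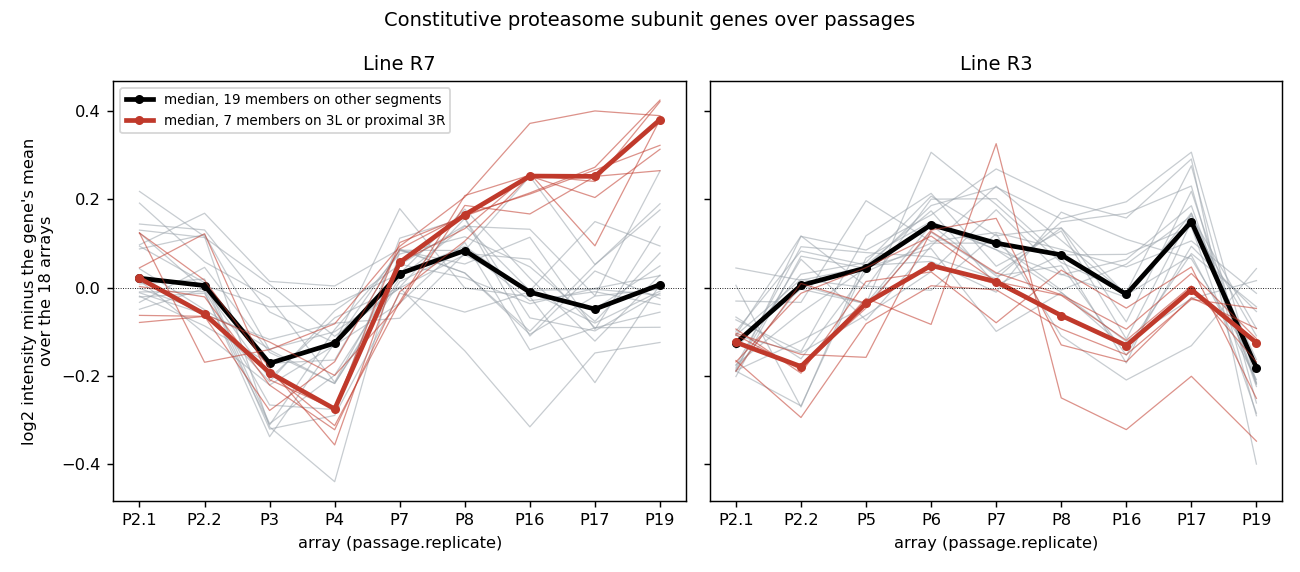
Log2 intensity of each constitutive proteasome subunit gene minus its own mean over the 18 arrays (vertical axis) against array in passage order, for line R7 (left) and line R3 (right); thin red lines are the 7 genes on 3L and proximal 3R, thin grey lines the 19 others, and thick lines their medians. In R7 the red median parts from the black one at the last 3 arrays (gaps of 0.26, 0.30 and 0.37), and in R3 the gap stays between -0.18 and 0.06.

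Within R7 the gap between the 7 members and the 19 others opened with passage. It was -0.00 and -0.06 in the P2 replicates, -0.02 at P3, -0.15 at P4, 0.03 at P7, 0.08 at P8, 0.26 at P16, 0.30 at P17 and 0.37 at P19 (log2, difference of medians). The same gap over all bright genes was -0.08 and -0.09 in the P2 replicates, -0.09 at P3, -0.07 at P4, -0.01 at P7, 0.09 at P8, 0.23 at P16, 0.27 at P17 and 0.29 at P19. Both gaps were largest on the 3 late arrays. In R3 the gap over all bright genes stayed between -0.08 and -0.03 on the 9 arrays.

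A fit of 1 slope per line on log2 of the passage number used all 9 arrays of R7. Per doubling of the passage number, Prosbeta6 rose by 0.15 ± 0.03 (adjusted p = 0.00739), Rpn1 by 0.15 ± 0.04 (adjusted p = 0.0247) and Prosbeta2 by 0.14 ± 0.03 (adjusted p = 0.00412). Prosbeta7, Rpn12 and Prosbeta3 also rose, by 0.12, 0.12 and 0.10, and Rpn8 changed by -0.09 ± 0.02 (adjusted p = 0.0192). These were 6 members higher and 1 lower, where 8.56% and 11% of all tested probe sets were called. All 6 that rose are on 3L or proximal 3R. In R3 the slope gave no call, with 0% of all tested probe sets called and 0 members at an unadjusted p under 0.05 in limma. Without R3 P2 replicate 2 and R3 P19 it gave no call either, with 2.41% of all tested probe sets called and 4 members at an unadjusted p under 0.05, and Rpt4 was nearest (0.12 ± 0.03, adjusted p = 0.0508). The count of 7 in R7 was 4 without R7 P2 replicate 2, 3 without R7 P3, R7 P17 or R7 P19, and 2 without R7 P16.

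At the intermediate stage of R7 (P7 and P8) no member was called against the early arrays, where 2.48% of all tested probe sets were. At an unadjusted p under 0.05 limma counted 1 member, Prosbeta2, with 1838 and 1939 in intermediate R7, against 1656, 1653 and 1426 in early R7 (0.26 ± 0.09, adjusted p = 0.125). Both of its intermediate arrays lay above its 3 early ones. The median difference over the constitutive subunits was 0.13 (23 of 26 above 0), against -0.00 for all tested probe sets. Among the 26, 9 had both intermediate arrays above all early ones and 1 below, where 20.8% and 21.8% of all tested probe sets did.

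The lines could be set against each other at each stage. At the late stage 6 members were higher in R7 than in R3 and 0 lower, where 5.27% of all tested probe sets were called higher and 2.35% lower. All 6 are on 3L or proximal 3R. This comparison shares its late R7 arrays with the one above, so it is no independent view of them.

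Rpn1 differed most between the late lines. It had 1184, 1207 and 1198 in late R7, against 732, 796 and 719 in late R3 (0.68 ± 0.12, 1.6-fold, adjusted p = 0.00437). No late R3 array came near the late R7 arrays, and the call held under all 32 alternatives tried. Prosbeta2 had 2003, 2080.1 and 2162 in late R7, against 1579, 1724 and 1586 in late R3 (0.35 ± 0.08, 1.28-fold, adjusted p = 0.0132). Prosbeta7 averaged 2422 ± 92 in late R7 and 1900 ± 118 in late R3 (SD, n = 3 each; adjusted p = 0.0149). Neither gene's late arrays overlapped between the lines. Rpn12 averaged 1379 ± 105 in late R7 and 1059 ± 48.7 in late R3 (adjusted p = 0.0179). Prosbeta6 averaged 2482 ± 176 in late R7 and 1927 ± 108 in late R3 (adjusted p = 0.0238), and Prosbeta3 2649 ± 96.8 and 2120 ± 106 in the same groups (adjusted p = 0.0404). These 3 also had every late R7 array above every late R3 array. Over all members, 7 had late R7 arrays wholly above and 1 wholly below the late R3 arrays, where 13.2% and 11.4% of all tested probe sets did. Rpn5 and Rpn8 showed separate groups too but were not called (0.33 ± 0.10, adjusted p = 0.0639, and -0.24 ± 0.07, adjusted p = 0.0507).

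The late comparison between the lines leans on single arrays. The count of 6 was 3 without R3 P16 and 1 (Rpn1) without R7 P19. Without R3 P2 replicate 2 and R3 P19, 4 members were called higher (Rpn1, Prosbeta2, Prosbeta7 and Rpn12), where 6% of all tested probe sets were. In that fit 2 were called lower in late R7, Rpn8 (-0.27, adjusted p = 0.0389) and the scaffold subunit Rpn2 (-0.33, adjusted p = 0.0262), where 5.13% of all tested probe sets were. With segment centring, Rpn1 (0.45, adjusted p = 0.0462) and Prosalpha7 (0.28, adjusted p = 0.0367) were called, where 2.65% of all tested probe sets were called higher. Of the 9 tested haemocyte genes 2 were lower in late R7 than in late R3, where 2.35% of all tested probe sets were called lower. The list sums were 2196 to 4158 in late R7, against 5490 to 6407 in late R3. The part of the haemocyte genes in the differences of the subunits was not tested.

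No member was called between the lines at the early or the intermediate stage, where 1.07% and 1.88% of all tested probe sets were. At an unadjusted p under 0.05 limma counted 2 members early and 1 at the intermediate stage. The median difference over the constitutive subunits was 0.04 early and 0.01 at the intermediate stage. The early comparison again gave no call without R3 P2 replicate 2 and R3 P19, where 1.91% of all tested probe sets were called, with 0 members at an unadjusted p under 0.05 and a constitutive median of 0.09.

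In R3 no member was called in late against early arrays, and 0% of all tested probe sets were. At an unadjusted p under 0.05 limma counted 1 member, the outer ring subunit Prosalpha4. It had 1524, 1478 and 1249.7 in late R3 (P16, P17 and P19), against 1239.5 and 1174 in early R3 (0.23 ± 0.10, adjusted p = 0.826). Its P19 array stood only just above the higher early one. The constitutive subunits had a median of 0.06 in this comparison, from -0.14 for Rpn1 to 0.23 for Prosalpha4, and the 7 on 3L and proximal 3R a median of 0.06. Intermediate against early R3 likewise gave no call, with 0% of all tested probe sets called and 4 members at an unadjusted p under 0.05. There the constitutive median was 0.16, and 10 of 26 had all 4 intermediate arrays above both early ones and 0 below, where 6.33% and 10.3% of all tested probe sets did.

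Without R3 P2 replicate 2 and R3 P19, early R3 is a single array and late R3 has 2, and the lone array is assumed to vary like the other groups. In that fit 2 base subunits were higher in late R3, where 3.95% of all tested probe sets were called higher. Rpn2 had 1838 and 2016 in late R3 (P16 and P17), against 1444 in the early array (0.41 ± 0.11, adjusted p = 0.0373). The ATPase Rpt4 had 1577 and 1646 in late R3, against 1242 in the early array (0.38 ± 0.09, adjusted p = 0.0271). For both genes the left-out P19 array was low (1249.18 for Rpn2 and 1148 for Rpt4) and the left-out P2 replicate 2 high (1786 and 1497), so with them the groups overlapped. At the intermediate stage Rpn2 was called in this fit (0.37 ± 0.10, adjusted p = 0.0428), where 3.02% of all tested probe sets were called higher.

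Whether the lines changed differently was tested directly, as the late minus early difference of R7 less that of R3. No member passed, where 2.91% of all tested probe sets were called, and 5 members had an unadjusted p under 0.05 in limma. The nearest were Prosbeta2 (0.40 ± 0.12) and Rpn8 (-0.36 ± 0.10), both at an adjusted p of 0.0871, and Rpn1 (0.59 ± 0.18, adjusted p = 0.11). The difference between the slopes gave no call either, where 2.15% of all tested probe sets were called, with 6 members at an unadjusted p under 0.05. The rises in R7 are therefore not shown to differ from the changes in R3, though single arrays decided this. No member passed the first test on omitting R3 P2 replicate 2 and R3 P19, where 4.6% of all tested probe sets were called, and 6 had an unadjusted p under 0.05. In that fit the nearest were Rpn8 (-0.39 ± 0.12, adjusted p = 0.104), Rpn2 (-0.42 ± 0.13, adjusted p = 0.111) and Rpt4 (-0.34 ± 0.11, adjusted p = 0.122), while Rpn1 was at 0.60 ± 0.23 (adjusted p = 0.185) and Prosbeta2 at 0.28 ± 0.12 (adjusted p = 0.252). The slope difference gave no call without them either, where 0.627% of all tested probe sets were called, with 5 members at an unadjusted p under 0.05. When R3 P2 replicate 1 was left out, Prosbeta2 passed in both tests and the testis-type Rpt3R in the slope test. Without R3 P7, Rpn1 passed in both, and without R7 P3, Rpn8 passed in the first.

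**Figure D4:**
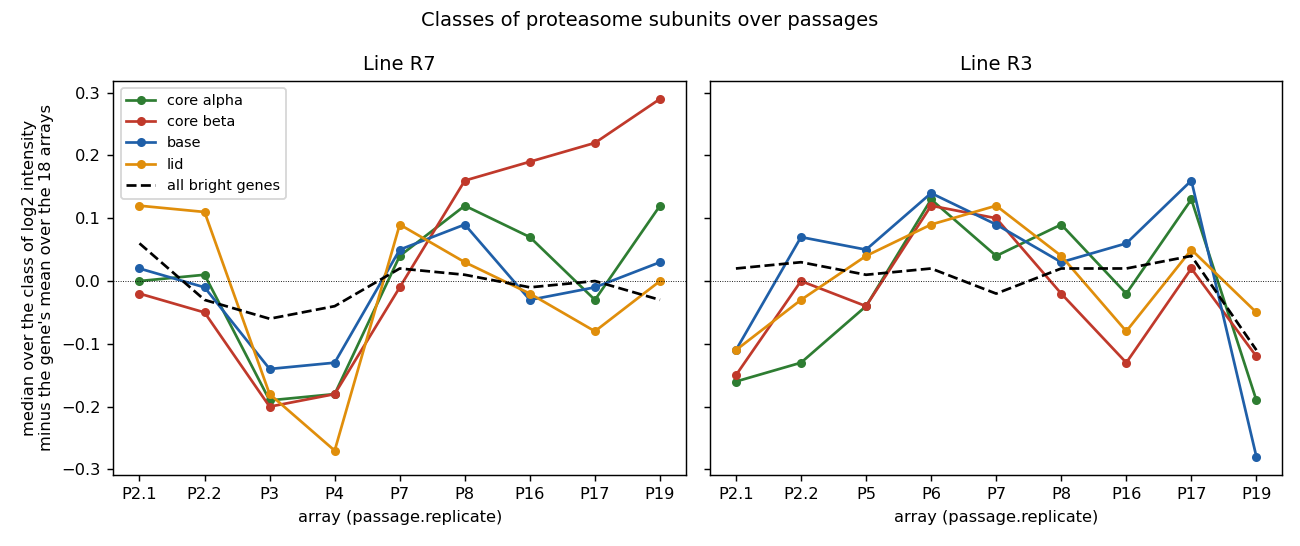
Median over each class of constitutive subunit of log2 intensity minus the gene's mean over the 18 arrays (vertical axis) against array in passage order, for line R7 (left) and line R3 (right); the dashed line is the median of all bright genes. All 4 classes are low at R7 P3, R7 P4 and R3 P2 replicate 1, at R3 P19 the lid (-0.05) stays above the other classes, and the core beta class stands above the others at R7 P16, P17 and P19 (0.19, 0.22 and 0.29).

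Besides the late shift, the subunits moved together from array to array. Relative to each gene's own mean over the 18 arrays, the constitutive median was lowest at R7 P3 (-0.19), R7 P4 (-0.17), R3 P19 (-0.17) and R3 P2 replicate 1 (-0.12). On these 4 arrays 2, 1, 2 and 2 of the 26 subunits lay above their own mean. It was highest at R3 P6 (0.12), R7 P8 (0.10) and R3 P17 (0.10), where 24, 23 and 20 of the 26 did. At R7 P3 the class medians were -0.19 for core alpha, -0.20 for core beta, -0.14 for base and -0.18 for lid, and at R7 P4 -0.18, -0.18, -0.13 and -0.27 in the same order. All 4 classes were also low at R3 P2 replicate 1, from -0.16 (core alpha) to -0.11 (base and lid). At R3 P19 core alpha, core beta and base were at -0.19, -0.12 and -0.28, while the lid was at -0.05. The bright genes as a whole were at -0.06 on R7 P3, -0.04 on R7 P4, -0.11 on R3 P19 and 0.02 on R3 P2 replicate 1. The median intensity of the array was 30.4, 28, 29.7 and 27.4 on these 4 arrays, in the upper part of the range of 23.2 to 30.4, and its part in the dips was not tested. The other P2 arrays did not dip alike: the median was 0.02 and -0.00 in the R7 P2 replicates and -0.02 in R3 P2 replicate 2. The median intensities of these arrays were 27.7, 29.3 and 23.8 in the same order.

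Correlations are given as a description over the 18 arrays, which share scaling and culture. They were taken on log2 values after each gene's mean within each line was subtracted, so level differences between the lines do not enter. The median Pearson correlation between constitutive subunits was 0.54 over 325 pairs, and 90.8% of pairs lay above 0. For the 2286 tested genes with a mean above 500 the median was 0.06, with 55.6% of pairs above 0. The correlation was 0.85 among the 7 members on 3L and proximal 3R, 0.57 among the 19 others and 0.47 between them. This split was drawn from the late against early difference in R7. That difference is part of these correlations, so the 0.85 is no separate support for the split. By class it was 0.71 in core alpha, 0.63 in core beta, 0.47 in the base and 0.35 in the lid. The lid held the subunits least like the rest: the median correlation with the other constitutive members was -0.01 for the deubiquitinase Rpn11, 0.12 for its partner Rpn8 and 0.15 for Rpn6, which clamps the cap to the core. The most like the rest was Prosalpha3, at 0.71.

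All these movements were small. The SD of a constitutive subunit over the 18 arrays had a median of 0.15 (log2) and ran from 0.07 for Prosalpha2 to 0.25 for Rpn1, where genes with a mean above 500 had a median of 0.18. Prosalpha2 had intensities from 2057 to 2524 over all 18 arrays, and Rpn1 from 719 to 1207. Of genes with a mean above 500, 26.7% had a larger SD than Rpn1.

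Most testis-type subunits were below the floor on most arrays. Of 14, 9 lay above the floor on 0 of 18 arrays (Prosalpha4T1, Prosalpha6T, Prosbeta4R1, Prosbeta4R2, Prosbeta5R1, Prosbeta5R2, Rpn12R, Rpn13R and Rpt4R), and Prosalpha4T2 and Prosbeta2R1 on 1 array each. The highest value among the 9 was 31.5, for Prosalpha6T on R7 P16. The 3 that passed the filter were Rpt3R, Prosbeta2R2 and Prosalpha3T, none of which was called in any comparison with all arrays. Without R3 P2 replicate 2 and R3 P19, Rpt3R was called for its slope on log2 passage in R7 (0.27 ± 0.09, adjusted p = 0.037), where 11.4% of all tested probe sets were called higher.

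**Figure D5:**
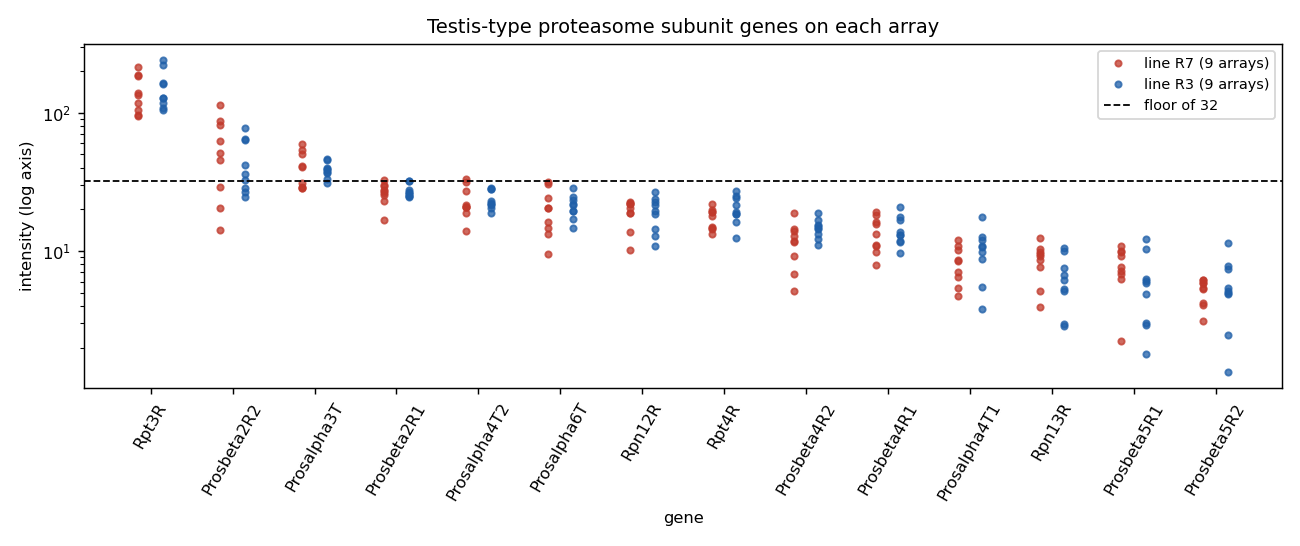
Intensity (vertical log axis) of the 14 testis-type proteasome subunit genes on each of the 18 arrays, R7 in red and R3 in blue; the dashed line marks the floor of 32. Rpt3R lies above the floor on all 18 arrays, Prosbeta2R2 and Prosalpha3T straddle it, and most of the others lie below it.

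Rpt3R, a duplicate of the ATPase gene Rpt3 that lies on proximal 3R, was above the floor on all 18 arrays. It had 135, 215 and 186 in late R7, against 94, 95.8 and 117 in early R7. Every late array was above every early one, yet the difference did not pass (0.79 ± 0.33, 1.73-fold, adjusted p = 0.109). In R3 it had 165, 127 and 105 in late arrays, against 108 and 219 in early arrays, which overlapped (-0.25 ± 0.37, adjusted p = 0.988). Prosbeta2R2 ran from 14.2 to 113 over the 18 arrays and was above the floor on 12. It had 29, 86.4 and 45.8 in late R7, against 14.2, 20.5 and 62.5 in early R7 (0.33 ± 0.46, adjusted p = 0.669), with overlap. Prosalpha3T ran from 28.6 to 59.2 and was above the floor on 13 arrays (-0.28 ± 0.21 in late against early R7, adjusted p = 0.392).

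Genes of the male germline were set beside these duplicates. Of 24 listed testis genes 23 had a probe set, and 12 of these were above the floor on 0 arrays, among them the spermatocyte regulators aly, can, comr, sa and nht, the testis tubulin betaTub85D and the sperm chromatin genes ProtA and ProtB. The other 11 passed the filter, with mia, twe and Mst84Dc above the floor on all 18 arrays. The summed intensity of the list was 871 to 990.0 in late R7, against 771 to 899 in early R7, and 819.6 to 1009 in late R3, against 864.5 to 904 in early R3. In late against early R7, 1 of the 11 rose, near the 8.75% of all tested probe sets called higher. It was topi, on proximal 3R (0.52 ± 0.12, adjusted p = 0.0108), with 36.0, 46.7 and 57.3 in late R7. Its early R7 values of 19.9, 19.0 and 22.7 all lay below the floor and were set to 32. The size and error of this difference therefore depend on the floor. Of 6 listed germ cell genes 5 had a probe set: vas and otu were above the floor on 0 arrays, aub and piwi on all 18 and ovo on 15. Of the 3 that were tested, piwi fell in late R7, with 102, 106 and 98.0 in late R7, against 738, 644 and 561 in early R7 (-2.66 ± 0.75, 6.32-fold lower, adjusted p = 0.0266). On the same list ovo rose, with 101, 323 and 232 in late R7, against 50.8, 44.6 and 28.6 in early R7 (2.23 ± 0.72, 4.7-fold, adjusted p = 0.0458). Which cells its signal came from was not tested. Of all tested probe sets, 8.75% were called higher and 11.2% lower in this comparison. The list's sums were 352.4 to 557.1 in late R7, against 815.8 to 994.1 in early R7, and their part in the values of the subunit genes was not tested.

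Genes that work with the proteasome were listed too. Of 23 listed partners (assembly and activator proteins, deubiquitinases, shuttle factors, the unfoldase TER94 and its adaptors, ubiquitin genes and the transcription factor cnc with its partner maf-S), 17 had a probe set, and all 17 were tested. In late against early R7, 1 of 17 rose and 0 fell, with a median of -0.03, where 8.75% of all tested probe sets were called higher and their median was -0.03. The one that rose was Uch-L5, a deubiquitinase whose mammalian counterpart docks on Rpn13, and its gene is on 3L as well. It had 1248, 1174 and 1363 in late R7, against 733, 807 and 802 in early R7 (0.69 ± 0.12, 1.61-fold, adjusted p = 0.00245). Its late arrays lay well clear of its early ones, and its intermediate arrays, at 1085 and 1238, did too (0.57, adjusted p = 0.0471). Uch-L5 was also higher in late R7 than in late R3 (1248, 1174 and 1363 in late R7, against 840, 878 and 719 in late R3: 0.64 ± 0.12, adjusted p = 0.00699).

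The other partners had smaller differences in late against early R7. Pomp, the chaperone of core assembly, was at 0.09 ± 0.13 and REG, an alternative cap of the core, at 0.04 ± 0.09. The regulator PI31 was at -0.38 ± 0.16 (adjusted p = 0.118), TER94 at 0.00 ± 0.13, and cnc, whose mammalian relatives include an activator of proteasome genes, at -0.11 ± 0.08. None of these 5 was called. In the limma fit over all R7 passages, 1 of the 17 partners was called higher and 1 lower, where 8.56% and 11% of all tested probe sets were. They were Uch-L5, with a slope of 0.25 ± 0.04 (adjusted p = 0.00162), and rngo, a shuttle factor, with -0.10 ± 0.03 (adjusted p = 0.0448). In R3, 0 of the 17 partners were called in any comparison between stages, where 0% of all tested probe sets were. This count was made with all arrays only.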

How the data were processed

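Total RNA of R7 and R3 was measured on 18 arrays. The deposited table holds intensity on a linear scale, 1 value per probe set, summarised and scaled by the authors before deposit. How they did so is not given in the sources used here. Probe sets were named from GEO's platform annotation, updated through Entrez numbers, and all 40 members matched. Of 18769 non-control probe sets, 10200 were tested, above a floor of 32 on at least 2 arrays. Log2 values of the deposited intensities were fitted in limma 3.58.1 (R 4.3.3), with 7 groups over 18 arrays, and in a second fit with 1 slope on log2 passage per line. Benjamini-Hochberg adjustment ran over all tested probe sets. The fits were tested on simulated data. All members are named by rule. The members, classes and gene lists were chosen with earlier results of these data known. Same-numbered passages of the lines did not deviate together (r from -0.33 to 0.29), so no pairing was used. The number of arrays limits the precision. No member lies on a probe set with several symbols, but 5 are on probe sets of a type that can match related transcripts (Rpn12R, Rpn6, Rpn13, Prosbeta7 and Prosbeta5). Alternatives were other scalings, floors and filters, other stage borders, fewer arrays, a replicate block and segment centring. Promoter motifs and protein sequences were not analysed here.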

Additional observations from a re-analysis of the deposited data

How the results depend on the processing

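The number of members called depended on the spread and on the arrays used. In late against early R7, 8 members were called as reported, and 5 without a filter, with P4 counted as intermediate, with only the arrays compared and with a replicate block, and 2 with segment centring. Late R7 against late R3 gave 6 as reported, 2 with equal array medians, 1 with only the arrays compared, 2 with the replicate block and 2 with segment centring. The R7 slope gave 7 as reported, 4 without a filter, 4 with the replicate block and 2 with segment centring. The difference between the lines in late minus early gave 0 as reported and 1 under quantile normalization (Rpn8) and under equal medians (Rpn1). The slope difference gave 0 as reported and 2 (Rpn1 and Prosbeta2) under equal medians and with linear passage. Without R3 P2 replicate 2 and R3 P19, late against early R3 gave 2 and intermediate against early R3 gave 1. The replicate block, by passage replicate number, moved no other count past 1.5 times, and the check of same-numbered arrays gave no ground for pairing. Leaving out 1 array at a time gave 4 to 8 members in late against early R7, 1 to 8 in late R7 against late R3, 2 to 8 for the R7 slope, 0 to 1 for the difference between the lines, 0 to 2 for the slope difference and 0 in all other comparisons. Under segment centring, Prosbeta3 turned to -0.04 in late against early R7 (adjusted p = 0.816, range 0.00765 to 0.816) and to -0.01 for the R7 slope (adjusted p = 0.916, range 0.00912 to 0.916). That setting removes the shift of a whole segment by construction, and the cause of the other moves was not tested. Equal medians moved the median of all tested probe sets by 0.15 in late against early R7 and by 0.24 in the difference between the lines. The planned search for promoter motifs was not run. Low signal over background limits what can be said of 11 of the 14 testis-type genes.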
